A study of Mus musculus with 6 samples.

Results

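The genes described are 46 mouse enzymes of glycolysis and lactate formation (16 genes), of pyruvate entry and the tricarboxylic acid (TCA) cycle (15 genes) and of mitochondrial fatty acid oxidation (15 genes). They were taken by symbol from a list of enzyme genes, no measured value enters that rule, and all 46 were found among 28660 loci of the deposited table. The cells were HL-1, an established mouse cardiomyocyte line of atrial origin, grown in Claycomb medium with serum, L-glutamine and norepinephrine. Both groups come from nuclei of this 1 line under the same culture: the chromatin pellet extract (3 libraries) and the soluble nuclear extract (3 libraries), each with ERCC spike-ins, a set of synthetic RNAs, added before the RNA was extracted. The libraries were depleted of ribosomal RNA and kept strand. The comparison asks which messages stay with chromatin when nuclei are fractionated and which are released into the soluble extract.

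The table holds 1 FPKM value (fragments scaled by the length of the transcript and the size of the library) per gene and fraction, pooled by the authors over the 3 libraries. No spread between replicates can therefore be computed, no p-value is given for any gene or list, and depth cannot be read from FPKM. Folds are log2 of pellet over soluble after the pellet FPKM was multiplied by a spike-in factor of 3.37, called the spike-in scale. Without the factor, on the FPKM scale, every log2 fold is lower by 1.75. The 25 spike-ins averaging 5 FPKM or more scattered about the common factor with an SD of 0.09 on the log2 scale, from -0.22 to 0.13, so that a pair of them differed by up to 0.35. This technical scatter is the only error the table allows, and 45 of the 46 genes lie at or above a mean of 9.32 FPKM, within that range of levels. Of the cardiomyocyte markers Myh6, Myh7, Actc1, Tnnt2, Tnni3, Myl7, Myl4, Actn2, Gata4, Nkx2-5, Tbx5 and Nppa, 11 of 12 reached a mean of 0.5 FPKM, with summed values of 744 FPKM in the pellet and 3811 FPKM in the soluble extract. Endothelial, immune, skeletal muscle and neuronal marker lists each summed to 7.06 FPKM or less in both fractions, and the fibroblast list reached 88.4 FPKM in the pellet and 347 FPKM in the soluble extract, nearly all of it Col3a1. No locus was listed at 0.

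Glycolysis splits glucose into pyruvate in the cytosol and yields ATP and, by lactate dehydrogenase, lactate. The pyruvate dehydrogenase complex feeds acetyl-CoA into the TCA cycle in the mitochondrial matrix, and the beta-oxidation spiral supplies the same acetyl-CoA from fatty acids, which enter as carnitine esters. The adult heart draws most of its ATP from fatty acids, while the fetal heart leans more on glycolysis. These enzymes work mainly in the cytosol and the mitochondria, and their messages must leave the nucleus to be translated.

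Promoter sequence was read from RefSeq (GRCm38.p6) for 43 of the 46 genes, as the 250 bases before each listed transcription start. Acaa2, Cpt1b and Idh3a had no entry. The glycolytic promoters printed here belong to messages at the opposite ends of the pathway in the fraction data, Ldha and Pgk1 at the soluble end and Pfkp and Hk2 at the pellet end. Capitals mark ACGTG on either strand (written CACGT where it lies on the other strand). This is a form of the core that hypoxia-inducible factors are known to bind. The GCGTG form of that core, which the Pfkp window holds, was not searched or marked. In the Hadhb promoter, capitals mark GGGCGG, the GC box of Sp1-type factors, and this window covers 250 of the 272 bases that separate the starts of the divergent genes Hadha and Hadhb, which encode the subunits of 1 enzyme. Ldha has 2 starts in the table and the upstream one is shown. The window of the other start held no ACGTG.
Ldha (chr7:46845554-46845803, plus strand): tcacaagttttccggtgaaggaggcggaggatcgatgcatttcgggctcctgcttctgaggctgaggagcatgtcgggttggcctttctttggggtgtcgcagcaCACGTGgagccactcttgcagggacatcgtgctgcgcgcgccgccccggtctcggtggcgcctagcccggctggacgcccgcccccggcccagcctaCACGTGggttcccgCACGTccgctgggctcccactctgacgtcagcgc
Pgk1 (chrX:106186850-106187099, plus strand): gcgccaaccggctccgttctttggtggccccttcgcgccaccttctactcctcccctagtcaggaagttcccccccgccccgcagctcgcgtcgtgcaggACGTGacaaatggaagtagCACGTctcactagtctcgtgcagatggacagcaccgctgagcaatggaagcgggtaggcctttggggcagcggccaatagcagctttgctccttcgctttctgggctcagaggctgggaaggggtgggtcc
Pfkp (chr13:6648772-6649021, minus strand): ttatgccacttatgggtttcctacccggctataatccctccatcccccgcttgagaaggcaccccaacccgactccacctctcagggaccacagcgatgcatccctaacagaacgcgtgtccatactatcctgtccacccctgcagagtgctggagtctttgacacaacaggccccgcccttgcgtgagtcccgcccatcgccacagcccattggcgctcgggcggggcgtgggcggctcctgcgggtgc
Hk2 (chr6:82774455-82774704, minus strand): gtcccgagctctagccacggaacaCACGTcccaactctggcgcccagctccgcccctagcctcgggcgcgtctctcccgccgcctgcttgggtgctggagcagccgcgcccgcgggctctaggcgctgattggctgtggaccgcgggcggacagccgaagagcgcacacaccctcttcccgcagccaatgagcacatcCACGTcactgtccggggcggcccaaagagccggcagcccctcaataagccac
Hadhb (chr5:30155003-30155252, plus strand): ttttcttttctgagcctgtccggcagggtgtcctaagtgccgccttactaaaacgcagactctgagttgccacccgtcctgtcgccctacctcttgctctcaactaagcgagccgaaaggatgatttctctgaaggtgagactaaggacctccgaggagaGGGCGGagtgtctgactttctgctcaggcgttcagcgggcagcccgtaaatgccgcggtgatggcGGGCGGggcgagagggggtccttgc

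The ACGTG form lay in 3 stretches of the Ldha window, in 2 of the Pgk1 window and in 2 of the Hk2 window. It was not in the Pfkp window. Over the glycolytic genes 7 of 16 held it in at least 1 listed promoter (Hk2, Pfkm, Aldoa, Pgk1, Pgam1, Pkm and Ldha), against 4 of 14 genes of the TCA group and 1 of 13 of fatty acid oxidation. Among 8645 tested protein-coding genes with a promoter 25.9% held it, and 18.5% did among all 27025 genes that have a listed promoter. The 7 glycolytic genes with the letters had log2 folds between -1.39 (Ldha) and 0.15 (Hk2), so they lay at both ends of the group. At the soluble end Ldha, Aldoa and Pgk1 held the letters, and Eno1 (-1.41) and Tpi1 (-1.23) did not. The other motifs were searched on both strands. CACGTG, the E-box, which contains ACGTG, was in 3 of the 43 genes (7.0%, against 10.4% of tested protein-coding genes). AAGGTCA, a site of oestrogen-related receptors, was in 2 of 43 (4.65% against 3.40%), CCAAT in 21 of 43 (48.8% against 41.6%) and GGGCGG in 26 of 43 (60.5% against 66.5%). A gene with several listed starts was counted as holding a motif when any of its windows did.

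Messages of these enzymes lay towards the soluble extract as a group. On the spike-in scale 11 of the 46 were at least 2-fold lower in the pellet (23.9%, against 10.5% of the 13917 tested loci and 10.6% of the 11397 protein-coding ones), 1 was at least 2-fold higher (against 31.9% and 24%) and 34 lay within 2-fold. These shares are not matched for level or span. At a mean of 50 FPKM or more, 8 of 23 were at least 2-fold lower, against 41.8% of protein-coding loci at that level. Shares in the other ranges of level and span are given below. The median log2 fold of the 46 was -0.71, against 0.41 over all tested loci and 0.26 over the tested protein-coding loci. On the FPKM scale 45 of 46 were at least 2-fold lower (against 61.2% of tested loci) and 0 higher (against 9.66%), with a median of -2.47 against -1.34 over all tested loci. The place among protein-coding loci does not depend on the scale: 44 of the 46 lay below the protein-coding median (against 50% of protein-coding loci by construction) and 36 of 46 below the lower quartile (against 25%). The exceptions above the median were Pfkp and Cpt1b. The 46 genes held 1.10% of the protein-coding FPKM sum in the pellet and 1.77% in the soluble extract. A level in either bulk extract sums over all cells, and fewer cells with a message and less RNA per cell cannot be told apart in it.

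The 2-fold line runs through a dense stretch of these genes. Mdh1 (-1.003), Hadh (-1.01), Echs1 (-1.02) and Ldhb (-1.05) stood just past it, and Fh1 (-0.98), Idh3a (-0.97), Cs (-0.92), Suclg1 (-0.90) and Eno3 (-0.88) just short. All 9 lie within 0.12 of the line, which is the SD of the 47 spike-ins averaging 0.5 FPKM or more, so the count of 11 changes with small shifts of the factor. It was 7 with the median spike-in ratio in place of the slope. A further limit is that 16 of the 46, among them Hk1, Hk2, Pfkp, Tpi1, Gapdh, Mdh1 and Cpt1b, share table coordinates with another locus.

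**Figure D1:**
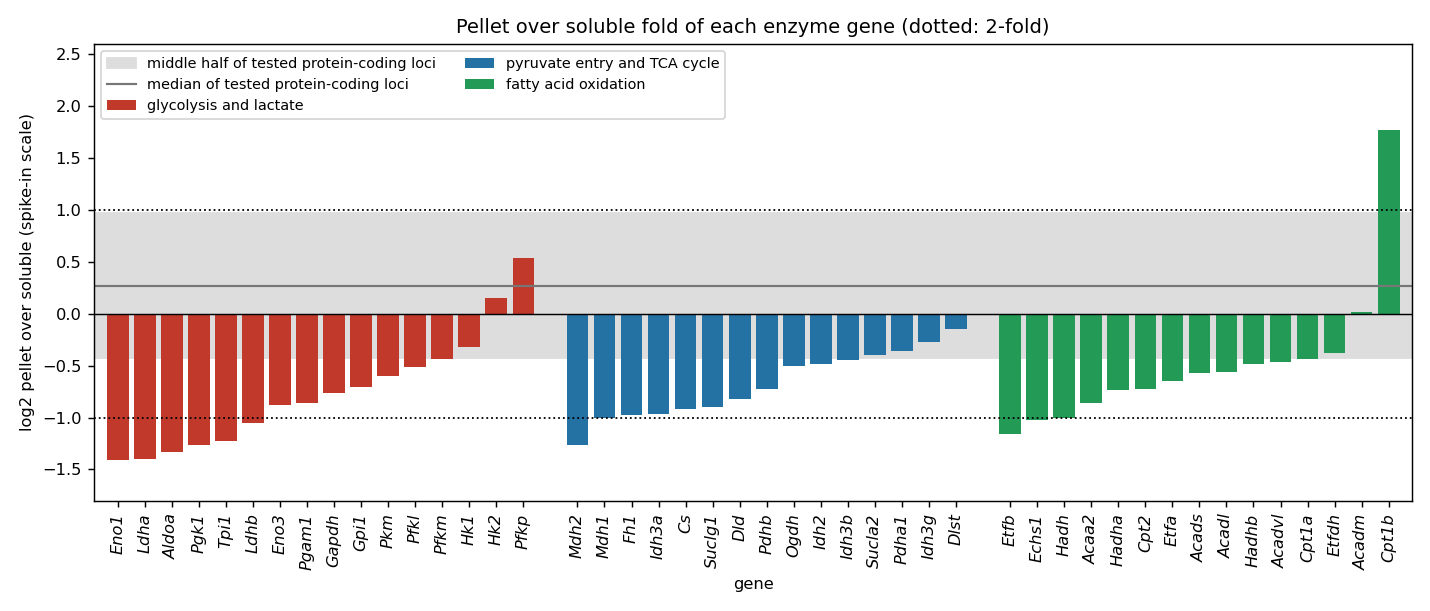
Log2 fold of pellet over soluble on the spike-in scale (vertical axis) for each of the 46 genes, as 1 bar per gene, sorted within the pathways. Dotted lines mark 2-fold and the grey band spans the quartiles of tested protein-coding loci (-0.43 to 0.97). Bars reach from -1.41 (Eno1) to 1.77 (Cpt1b), 36 of 46 end below the band and 42 are below 0.

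Glycolysis had the lowest median of the 3 pathways, -0.81 on the spike-in scale, with 6 of 16 genes at least 2-fold lower in the pellet (37.5%, against 10.5% of tested loci) and 0 higher. On the FPKM scale its median was -2.56 and all 16 were lower (against 61.2% of tested loci). The group held 0.544% of the protein-coding FPKM sum in the pellet and 0.953% in the soluble extract, the most of the pathways in both. The hexokinases and phosphofructokinases, Hk1, Hk2, Pfkl, Pfkm and Pfkp, had folds of -0.51 or above. Gpi1, the isomerase between those steps, had -0.70, and each of the genes from aldolase onward had -0.60 or below.

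Eno1, the ubiquitous enolase (mm10 chr4:150236721-150248879), had 89.2 FPKM in the pellet and 799 FPKM in the soluble extract, and its log2 fold of -1.41 was the lowest of the 46. It was also the 51st of 11397 tested protein-coding loci in the pellet and the 27th in the soluble extract. Ldha, which makes lactate from pyruvate (chr7:46841475-46855627), had 52.1 FPKM in the pellet and 462 FPKM in the soluble extract, a log2 fold of -1.39. Both stood below the 5th percentile of protein-coding folds (4.40 and 4.60). Aldoa, the aldolase of muscle and most other tissues, had 72.0 FPKM in the pellet and 610 FPKM in the soluble extract (log2 fold -1.33). For Pgk1, the first ATP-yielding kinase of the pathway, the values were 14.3 FPKM in the pellet and 116 FPKM in the soluble extract (-1.26). Tpi1, which interconverts the triose phosphates, had 31.1 FPKM in the pellet and 245 FPKM in the soluble extract (-1.23). These 5, with Ldhb, are the glycolytic genes past the 2-fold line.

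Pkm, pyruvate kinase of the last glycolytic step, had the highest fold of the genes from aldolase onward, with Gapdh, Pgam1 and Eno3 (-0.88) next below. It had 119 FPKM in the pellet, the most of the 46 genes there, and 608 FPKM in the soluble extract, a log2 fold of -0.60. Its rank was 25th in the pellet and 49th in the soluble extract among tested protein-coding loci, whereas Aldoa, at a nearly equal soluble level, ranked 111th in the pellet and 48th in the soluble extract. The fold of Pkm was higher than that of Aldoa by more than any pair of these spike-ins differed. Gapdh, the dehydrogenase often used as a reference message, had 32.1 FPKM in the pellet and 183 FPKM in the soluble extract (-0.76). Pgam1, the phosphoglycerate mutase of most tissues, had a fold of -0.86.

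**Figure D2:**
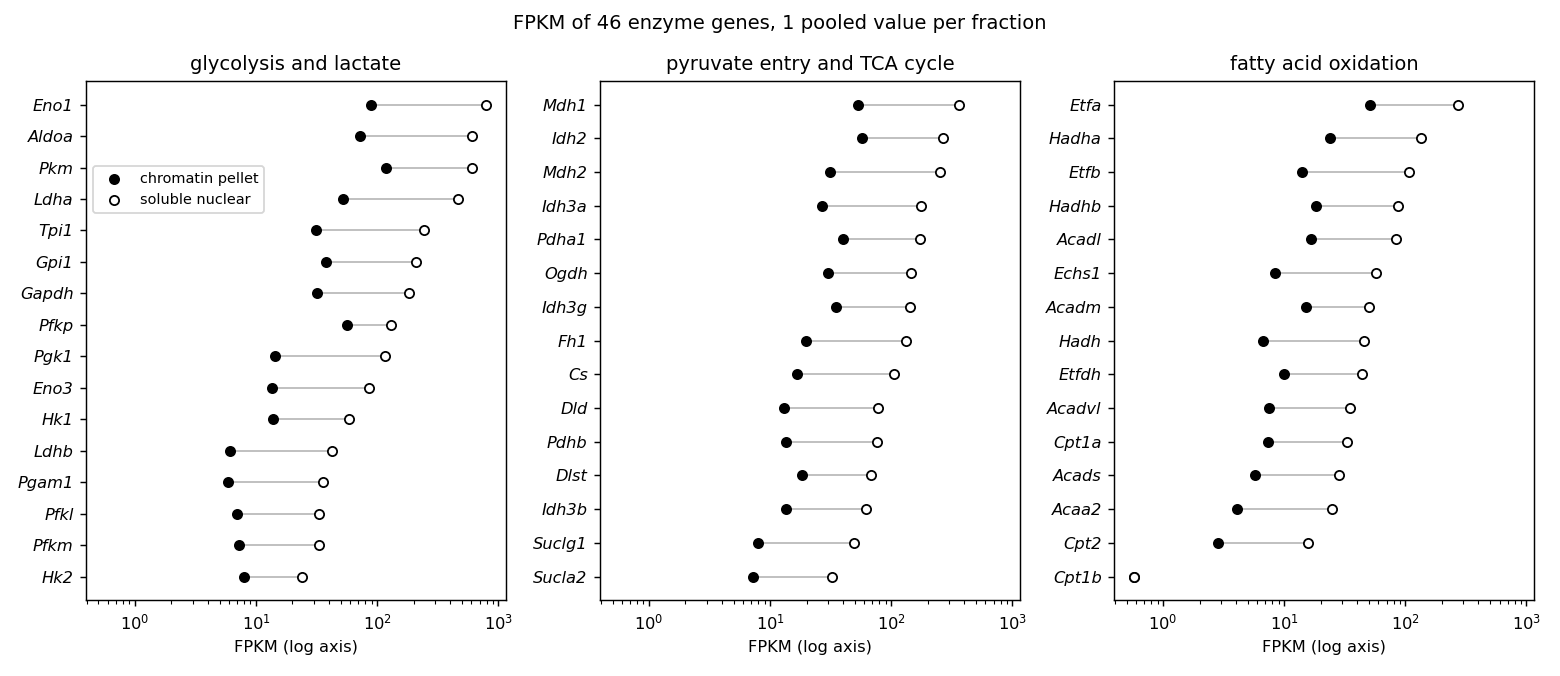
FPKM in the chromatin pellet (filled) and in the soluble extract (open) on a log axis, 1 row per gene, in 3 panels by pathway and sorted by the soluble value. The open point lies to the right in 45 rows, and in the row of Cpt1b the values of 0.577 FPKM in the pellet and 0.570 FPKM in the soluble extract coincide.

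Among the 16 glycolytic genes, the hexokinases and phosphofructokinases had the highest folds, but only Pfkp and Hk2 were positive. Of these genes only Pfkp lay above the protein-coding median. Phosphofructokinase, the main control point of glycolysis, is encoded by Pfkp (platelet type), Pfkl (liver type) and Pfkm (muscle type). Pfkp had 56.1 FPKM in the pellet and 130 FPKM in the soluble extract, a log2 fold of 0.54 that becomes -1.21 on the FPKM scale. Its table locus, chr13:6548157-6648777, is shared with Pitrm1. Pfkl had 6.92 FPKM in the pellet and 33.4 FPKM in the soluble extract (-0.51), and Pfkm had 7.30 FPKM in the pellet and 33.2 FPKM in the soluble extract (-0.43). The platelet type thus made up 79.8% of the phosphofructokinase FPKM in the pellet and 66.1% in the soluble extract, and its fold exceeded that of Pfkl by 1.06, whatever the scale. The muscle and liver types differed by 0.08, which is less than the SD of the spike-ins. Hk2, the insulin-responsive hexokinase of muscle, had 7.93 FPKM in the pellet and 24.0 FPKM in the soluble extract (0.15, or -1.60 on the FPKM scale). Hk1, the hexokinase of most tissues, had 13.8 FPKM in the pellet and 58.1 FPKM in the soluble extract (-0.32). Hk2 was therefore the lesser message in both fractions, and its fold was higher than that of Hk1 by 0.47.

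Among the later enzymes, Eno3 and Ldhb were lesser messages than Eno1 and Ldha, while the muscle forms of aldolase and the mutase were the greater ones. Eno3, the muscle enolase, had 13.7 FPKM in the pellet and 84.9 FPKM in the soluble extract, and Eno1 was 6.53-fold higher in the pellet and 9.42-fold higher in the soluble extract. Ldhb, the heart-type lactate dehydrogenase subunit, had 6.08 FPKM in the pellet and 42.5 FPKM in the soluble extract, so that Ldha was 8.57-fold higher in the pellet and 10.9-fold higher in the soluble extract. The log2 fold of Eno3 was 0.53 above that of Eno1, and that of Ldhb 0.34 above that of Ldha. Pgam2, the muscle mutase, belongs to a wider list of glycolytic genes and had 13.6 FPKM in the pellet and 123 FPKM in the soluble extract, against 5.88 FPKM in the pellet and 36.0 FPKM in the soluble extract for Pgam1. Aldoa, with the levels given above, likewise exceeded Aldoc, the brain-type aldolase of the wider list, which had 7.54 FPKM in the pellet and 49.9 FPKM in the soluble extract. Processed pseudogenes named for Ldha and Pgam1 are in the table, and the division of fragments between such copies is not stated. Pgam1-ps2 had 0.80 FPKM in the pellet and 6.91 FPKM in the soluble extract, and Ldha-ps2 had 0.486 FPKM in the pellet and 5.30 FPKM in the soluble extract.

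**Figure D3:**
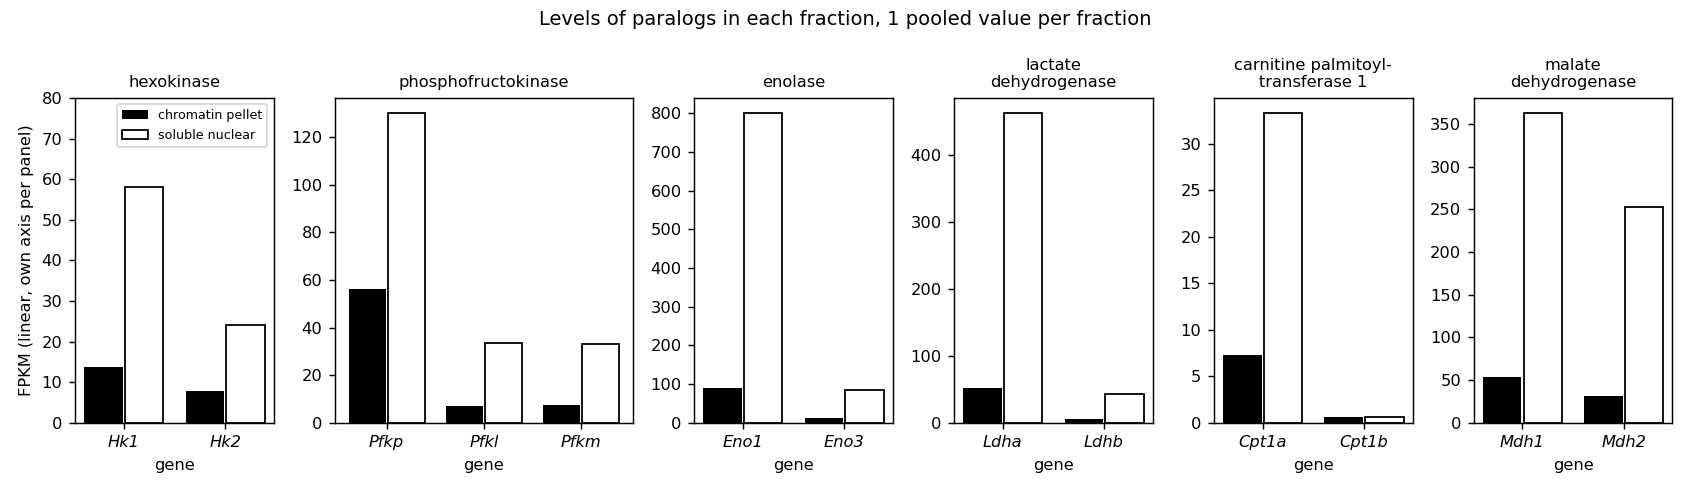
FPKM of paralogous enzymes in the chromatin pellet (filled bars) and in the soluble extract (open bars), with a linear axis of its own in each panel. Pfkp, Eno1, Ldha and Cpt1a are the tallest in their panels in both fractions.

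Genes of pyruvate entry and of the TCA cycle had a median log2 fold of -0.72 on the spike-in scale, with 2 of 15 at least 2-fold lower in the pellet (13.3%, against 10.5% of tested loci) and 0 higher. On the FPKM scale the median was -2.48 and all 15 were lower (against 61.2% of tested loci). No gene of this group had a positive fold. Its folds ran from -1.26 (Mdh2) to -0.14 (Dlst). Mdh2, the mitochondrial malate dehydrogenase that closes the cycle, had 31.2 FPKM in the pellet and 252 FPKM in the soluble extract. Mdh1, its cytosolic counterpart in the malate-aspartate shuttle, had 53.6 FPKM in the pellet and 362 FPKM in the soluble extract (-1.003). These are the 2 genes of the group past the line. Dlst, the succinyltransferase core of the oxoglutarate dehydrogenase complex, had 18.2 FPKM in the pellet and 67.7 FPKM in the soluble extract. Its partner subunits in that complex had lower folds, -0.50 for the dehydrogenase Ogdh and -0.82 for Dld, the lipoamide dehydrogenase shared with the pyruvate dehydrogenase complex.

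Messages for subunits of 1 enzyme differed by 0.18 to 0.69 in log2 fold, here and in fatty acid oxidation. The NAD-dependent isocitrate dehydrogenase is built from Idh3a, the catalytic subunit, with Idh3b and Idh3g. Idh3a had 26.6 FPKM in the pellet and 175 FPKM in the soluble extract (-0.97). Idh3b had 13.5 FPKM in the pellet and 62.0 FPKM in the soluble extract (-0.45). Idh3g had 35.0 FPKM in the pellet and 142 FPKM in the soluble extract (-0.27). The catalytic subunit thus lay 0.52 below Idh3b and 0.69 below Idh3g, each more than the 0.35 between the highest and the lowest spike-in, and Idh3b shares its table locus with Nop56 and its small nucleolar RNAs. Pdha1 and Pdhb, subunits of the pyruvate dehydrogenase that opens the cycle to glucose carbon, were apart by 0.37: Pdhb had 13.6 FPKM in the pellet and 75.7 FPKM in the soluble extract (-0.72), and Pdha1 had 39.8 FPKM in the pellet and 172 FPKM in the soluble extract (-0.35). Sucla2, the ATP-forming subunit of succinyl-CoA ligase, had 7.23 FPKM in the pellet and 32.2 FPKM in the soluble extract (-0.40). Its partner Suclg1 had 7.88 FPKM in the pellet and 49.6 FPKM in the soluble extract (-0.90). Idh2, the NADP-dependent isocitrate dehydrogenase of mitochondria, was the most abundant of this group in the pellet, with 56.9 FPKM there and 269 FPKM in the soluble extract (-0.49). The remaining enzymes, citrate synthase (Cs, -0.92) and fumarase (Fh1, -0.98), lay close to the 2-fold line.

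Fatty acid oxidation genes had the highest median of the 3 pathways, -0.57 on the spike-in scale, with 3 of 15 at least 2-fold lower in the pellet (20%, against 10.5% of tested loci) and 1 higher. Without the spike-in factor the median was -2.33, 14 were lower (against 61.2% of tested loci) and 0 higher (against 9.66%). Their levels were also the lowest, with a median of 8.42 FPKM in the pellet and 45.3 FPKM in the soluble extract, against 22.7 FPKM in the pellet and 123 FPKM in the soluble extract for glycolysis. The pathway medians differ by less than the spread of the genes within each pathway.

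Carnitine palmitoyltransferase 1 loads fatty acids onto carnitine at the outer mitochondrial membrane and limits the rate of oxidation. Cpt1a, the liver form that fetal heart also uses, had 7.28 FPKM in the pellet and 33.3 FPKM in the soluble extract (-0.44). Cpt1b, the muscle and adult heart form (table locus chr15:89416405-89430868), had 0.577 FPKM in the pellet and 0.570 FPKM in the soluble extract. It ranked 10707th and 11244th of 11397 tested protein-coding loci in these fractions. Cpt1a was 12.6-fold higher than Cpt1b in the pellet and 58.4-fold higher in the soluble extract. Cpt1c, the brain-type paralog from the wider list, lay between them with 4.31 FPKM in the pellet and 5.90 FPKM in the soluble extract (1.30, or -0.45 on the FPKM scale). The log2 fold of Cpt1b, 1.77 on the spike-in scale, was the only one of the 46 past 2-fold towards the pellet, and it becomes 0.02 on the FPKM scale. Cpt1b passed the level filter of 0.5 FPKM narrowly, and spike-ins between 0.5 and 5 FPKM had an SD of 0.14 (n = 22). Its table locus also holds Chkb, the choline kinase gene next to it, which had 4.65 FPKM in the pellet and 4.33 FPKM in the soluble extract with a nearly equal fold of 1.86. The part of fragments from Chkb in the value of Cpt1b was not tested. Cpt2, which releases the fatty acid again inside the mitochondrion, had 2.84 FPKM in the pellet and 15.8 FPKM in the soluble extract (-0.72).

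The acyl-CoA dehydrogenases, which take the first oxidation of each turn, were close together except for the medium-chain enzyme. Acadm, the medium-chain form, had 15.1 FPKM in the pellet and 50.5 FPKM in the soluble extract (0.02, or -1.74 on the FPKM scale). The short-chain form Acads (-0.57), the long-chain form Acadl (-0.57) and the very-long-chain form Acadvl (-0.47) lay close together. Acadm stood above each of the other 3 by more than any pair of these spike-ins differed. Electrons from these enzymes pass through the electron transfer flavoprotein, and its subunits were apart: Etfb had 14.1 FPKM in the pellet and 107 FPKM in the soluble extract (-1.16), and Etfa had 51.0 FPKM in the pellet and 270 FPKM in the soluble extract (-0.65). Etfdh, which hands the electrons on to ubiquinone, had -0.38.

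Folds of the later steps of the spiral ran from -1.02 to -0.48. Echs1, the short-chain enoyl-CoA hydratase, had 8.42 FPKM in the pellet and 57.6 FPKM in the soluble extract (-1.02), and Hadh, the hydroxyacyl-CoA dehydrogenase of medium and short chains, had 6.69 FPKM in the pellet and 45.3 FPKM in the soluble extract (-1.01). Acaa2, a matrix thiolase, had -0.86. The trifunctional protein is encoded by the divergent pair whose shared promoter is printed above. Hadhb had 18.5 FPKM in the pellet and 86.9 FPKM in the soluble extract (-0.48), and Hadha had 23.9 FPKM in the pellet and 134 FPKM in the soluble extract (-0.73). The pair differed by 0.25 in log2 fold, less than the 0.35 between the highest and the lowest spike-in, and Hadha was 1.29-fold higher in the pellet and 1.54-fold higher in the soluble extract.

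Across the 46 genes the fold varied with gene span and soluble level in the direction seen over all protein-coding loci. Spearman's rank correlation of the log2 fold with RefSeq gene span was 0.37 over the 46 genes and 0.44 over 10726 tested protein-coding loci with a span. With soluble FPKM it was -0.43 over the 46 and -0.44 over those loci, and with pellet FPKM -0.18 over the 46 and 0.05 over those loci. The soluble value is itself the denominator of the fold, genes are not replicates, and these coefficients only describe the table. Within glycolysis the coefficient with span was 0.75 (n = 16), within the TCA group -0.02 (n = 15) and within fatty acid oxidation -0.09 (n = 15). The glycolytic genes with positive folds, Pfkp and Hk2, span 69.2 and 49.4 kb, and the 5 with the lowest folds span from 3.57 kb (Tpi1) to 16.6 kb (Pgk1).

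Set beside protein-coding loci of like span, the enzyme genes had lower medians, with the smallest gap among short genes. The 11 genes under 10 kb had a median log2 fold of -0.72, against -0.44 for 2486 protein-coding loci. For the 24 genes of 10 to 30 kb it was -0.88 against 0.12 (3640 loci), and all 24 lay below that figure. The 10 genes of 30 to 100 kb had -0.47 against 0.54 (3177 loci), and all 10 lay below. At least 2-fold lower in the pellet were 2 of the 11 under 10 kb, against 27.5% of protein-coding loci of that span. The counts were 8 of 24 (against 8.68%) at 10 to 30 kb and 1 of 10 (against 2.49%) at 30 to 100 kb.

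The gap also varied with level. Among genes averaging 50 FPKM or more, the 23 enzyme genes had a median of -0.76 and the 965 protein-coding loci had -0.77, and 11 of the 23 lay below that value. Between 20 and 50 FPKM the medians were -0.51 for 17 enzyme genes and -0.05 for 2002 protein-coding loci, with 16 of 17 below. Between 5 and 20 FPKM they were -0.57 for 5 enzyme genes and 0.32 for 4822 loci, with 5 of 5 below. At least 2-fold lower in the pellet were 8 of the 23 at 50 FPKM or more, against 41.8% of protein-coding loci there. The counts were 3 of 17 (against 15.8%) between 20 and 50 FPKM and 0 of 5 (against 6.08%) between 5 and 20 FPKM.

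Limits on level and span together gave a gap that depended on span. For short genes, under 10 kb, the enzyme genes with these level limits had higher medians than the protein-coding loci, which include them. At 20 FPKM or more these 9 enzyme genes had -0.76 and the 743 protein-coding loci had -1.09, with 2 of 9 below, and at 50 FPKM or more 4 enzyme genes had -0.99 and 339 loci had -1.33, with 0 of 4 below. For longer genes most enzyme genes lay below. At 20 FPKM or more the medians were -0.91 for 22 enzyme genes and -0.42 for 964 loci of 10 to 30 kb (18 of 22 below), and -0.53 for 8 enzyme genes and 0.26 for 816 loci of 30 to 100 kb (7 of 8 below). At 50 FPKM or more they were -0.97 for 14 enzyme genes and -0.65 for 297 loci of 10 to 30 kb (10 of 14 below), and -0.57 for 5 enzyme genes and -0.04 for 198 loci of 30 to 100 kb (4 of 5 below). Some of these sets are small, and the 50 FPKM sets are part of the 20 FPKM sets.

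**Figure D4:**
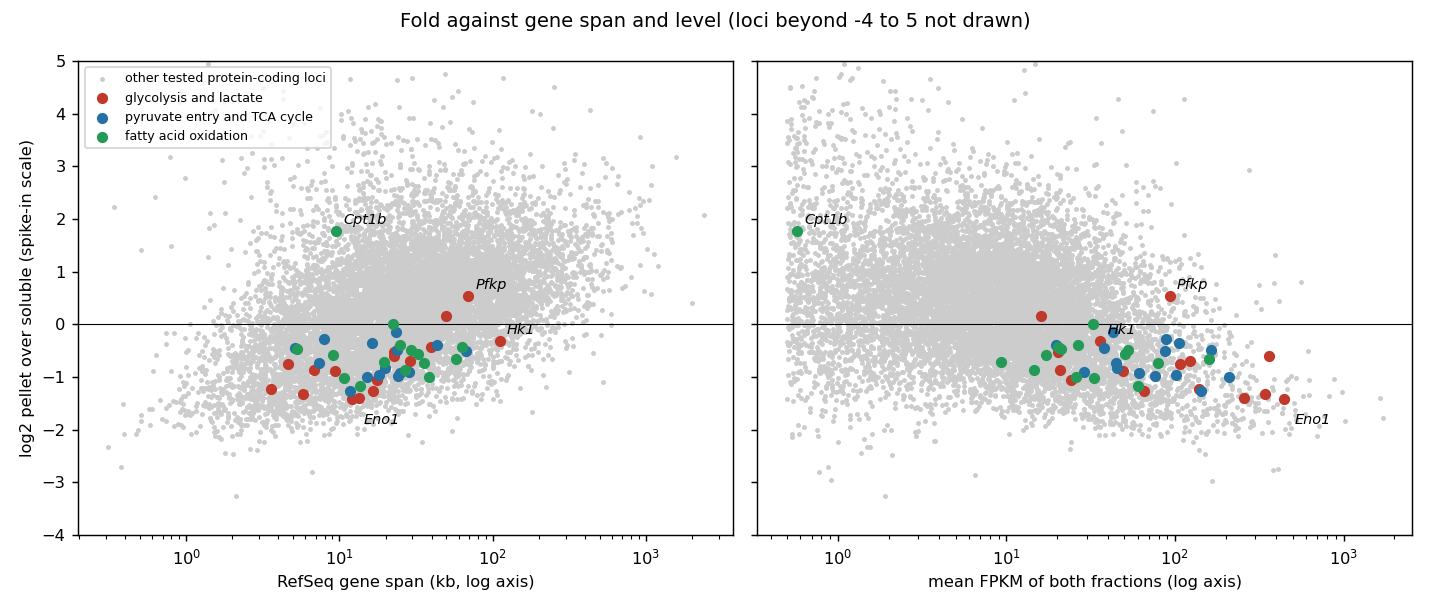
Log2 fold of pellet over soluble on the spike-in scale (vertical axes) against RefSeq gene span in kb (left, log axis) and against the mean FPKM of both fractions (right, log axis). Coloured points are the 46 enzyme genes by pathway and grey points the other tested protein-coding loci. The enzyme genes lie low in the cloud at spans of 10 to 100 kb and within it above 50 FPKM, and Cpt1b stands apart at the level filter.

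Wider lists of the same pathways, chosen by function, were counted in the same way. Of 31 other pyruvate and TCA genes tested, 4 were at least 2-fold lower in the pellet (12.9%, against 10.5% of tested loci) and 0 higher (against 31.9%), with a median log2 fold of -0.56. The lowest were Mpc2, a subunit of the mitochondrial pyruvate carrier (-1.56), and Sdhd, a membrane anchor of succinate dehydrogenase (-1.33). Sdhb (-1.31) and Sdhc (-1.24) were the others past the line, and the Sdh genes are also counted in the respiratory list below. Highest were Pdk4, a kinase that shuts off pyruvate dehydrogenase (0.94, or -0.82 on the FPKM scale), and Aco1, the cytosolic aconitase and iron regulatory protein (0.48, or -1.27). Of 30 other fatty acid oxidation genes, 3 passed the line downward (10%, against 10.5% of tested loci) and 5 upward (16.7%, against 31.9%). Their median of 0.09 becomes -1.67 on the FPKM scale, where the counts were 24 downward (against 61.2% of tested loci) and 0 upward. Hsd17b10, a multifunctional mitochondrial dehydrogenase (-1.56), and Eci1, an enoyl-CoA isomerase (-1.35), were lowest. Acox3, a peroxisomal acyl-CoA oxidase (1.74, or -0.02 on the FPKM scale), and Cpt1c (1.30, or -0.45) were highest.

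Of 19 other genes of glucose entry and glycolysis, 1 passed the line downward (5.26%, against 10.5% of tested loci) and 4 upward (21.1%, against 31.9%). Their median of 0.17 becomes -1.58 on the FPKM scale, where the counts were 14 downward (against 61.2% of tested loci) and 1 upward. The lowest were Pgam2 (-1.42) and Slc16a3, a lactate transporter (-0.98). The highest were Pfkfb1 and Pfkfb2, which belong to the bifunctional enzymes that set fructose 2,6-bisphosphate, the activator of phosphofructokinase. Pfkfb1 had 7.28 FPKM in the pellet and 2.30 FPKM in the soluble extract (3.42, or 1.66 on the FPKM scale), and Pfkfb2 had 7.25 FPKM in the pellet and 4.82 FPKM in the soluble extract (2.34, or 0.59). The family's other tested genes had 1.19 (Pfkfb4, or -0.56 on the FPKM scale) and 0.89 (Pfkfb3, or -0.87).

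Of 20 tested regulators of these pathways, 7 exceeded 2-fold towards the pellet (35%, against 31.9% of tested loci and 24% of protein-coding ones) and 0 towards the soluble extract (against 10.5%). Their median log2 fold of 0.79 becomes -0.97 on the FPKM scale, where the counts were 0 towards the pellet and 9 towards the soluble extract (against 61.2% of tested loci). On either scale 14 of the 20 were at or above the protein-coding median, against 2 of the 46 enzyme genes. Ppargc1a, the coactivator that drives mitochondrial gene expression, had 19.6 FPKM in the pellet and 15.4 FPKM in the soluble extract (2.10, or 0.35 on the FPKM scale), and its relative Ppargc1b had 2.33. The lowest were Tfam, the transcription factor of the mitochondrial genome (-0.54), and Epas1, a hypoxia-inducible factor (-0.42). Their genes are longer, with a median span of 75.7 kb against 21.1 kb for the enzymes, so span moved with this difference and its part was not tested.

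Nuclear genes of the respiratory chain, the pathway that these enzymes feed, lay further to the soluble side. The list was taken by name, as protein-coding genes starting with Nduf, Uqcr, Cox4 to Cox7 or Atp5, and Sdha to Sdhd. Membership was not checked gene by gene. Of 86 tested genes, 67 were at least 2-fold lower in the pellet and 0 higher. The share lower was 77.9%, against 23.9% of the enzyme genes and 10.5% of tested loci. The median log2 fold was -1.50, against -0.71 for the enzymes. The median span of the respiratory genes was 7.50 kb against 21.1 kb, and their median soluble level was 124 FPKM against 84.3 FPKM. Without replicates the difference between the lists was not tested, and the part of span and level in it was not tested.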

How the data were processed

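RNA of 6 libraries, 3 from the chromatin pellet and 3 from the soluble nuclear extract of HL-1 cells, was summarised by the authors in 1 table. Per the submitters' processing notes, the tools were Cuffdiff, Cufflinks, HISAT2, bedtools and SAMtools, on mm10. Their versions and settings, and the handling of overlapping genes and copies, are not stated. Per the file headers, the deposited FPKM values are 1 per fraction and locus. The deposited signal columns are a rescaled pellet value and its sum with the soluble FPKM. The deposited ratio is the rescaled pellet over the soluble FPKM, and log10 values of the total and of the ratio were also deposited by the authors.

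Of 30687 lines, 1945 repeated an identifier and were dropped, which left 28660 loci and 82 spike-ins. The spike-in factor (3.37) is the slope of a least-squares line without intercept, soluble FPKM against pellet FPKM. Multiplying pellet FPKM by it gave the deposited rescaled column of tested loci within 4.7e-07 percent. Loci with a mean FPKM of at least 0.5 were tested (13917), and a difference of at least 2-fold was counted. No pseudocount was added. All 46 enzyme genes passed the filter. Of these, 16 share table coordinates with another locus and 2 have named pseudogenes. Table starts count from 0, and 1 was added. Spans and promoters were matched by symbol to RefSeq on GRCm38.p6, with a span for 46 of 46 enzyme genes and 10726 of 11397 protein-coding loci. Replicates being pooled, no test, interval or block could be computed. The script was tested on simulated data. Python 3.11.15, pandas 2.3.3, numpy 2.4.6 and scipy 1.17.1 were used.

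The members and gene lists were chosen with earlier results of these data known, and motifs and level ranges were added after values were seen. Genes described with full values are the 5 highest and 5 lowest folds, the 5 largest sums of soluble and rescaled pellet FPKM, paralogs and subunits, and the 2 highest and 2 lowest of each wider list; other genes named were chosen after their values were seen. Alternatives covered scaling, pseudocount, level filter, threshold, shared coordinates and named copies.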

Additional observations from a re-analysis of the deposited data

How the results depend on the processing

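Of 42 recomputed counts and pathway medians, 27 stayed within 1.5 times the count or within the spike-in SD of the median, and 15 moved. On the FPKM scale 45 genes were at least 2-fold lower in the pellet (against 61.2% of tested loci) and 0 higher (against 9.66%). The medians there were -2.56 for glycolysis, -2.48 for the TCA group and -2.33 for fatty acid oxidation. The median spike-in ratio gave 7 lower. Centring on the protein-coding median gave 20 lower, with medians of -1.07, -0.99 and -0.84 in the same order of pathways. A 1.5-fold threshold gave 26 lower. Cpt1b, the 1 gene counted as higher, was lost to a count of 0 with a pseudocount of 1 FPKM (log2 fold 0.91), with a mean of at least 5 FPKM, and when the 16 genes that share coordinates were left out. Without those 16 the glycolysis median was -1.05. With the pseudocount the fold of Cpt1b exceeded that of Cpt1a by 1.33 in place of 2.21, and it moved the other 14 pairs by at most 0.03. No paired analysis was possible because the deposited columns pool the replicates, and for the same reason leaving out single libraries was not run. Library depth is not recorded in FPKM, and the spike-ins do not cover variation between cultures or fractionations.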
